A study of Mus musculus with 4 samples.

Results

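The chromatin around 3 genes that keep embryonic stem (ES) cells undifferentiated, Pou5f1, Sox2 and Sall4, was profiled for histone H3 acetylated at lysine 27 (H3K27ac). Members were taken by position alone on mouse build mm9: every region of the deposited list that overlapped chr17:35620000-35660000 (Pou5f1), chr3:34530000-34680000 (Sox2) or chr2:168550000-168620000 (Sall4). This gave 17 of the 23946 listed regions, 4 in the Pou5f1 window, 8 in the Sox2 window and 5 in the Sall4 window. The cells were MC1-ZE7, an ES line of 129S6/SvEvTac origin in which the fluorescent protein Emerald reports Zscan4, grown without feeders in serum with leukemia inhibitory factor and sorted on Emerald brightness. Emerald-negative cells (Zscan4-) and the bright Emerald-positive fraction (Zscan4+) each gave 2 chromatin immunoprecipitation sequencing libraries. All 4 came from this one line and one antibody, and the labels do not say whether replicates were separate cultures, so p-values cover only the spread between these libraries. In replicate 1, fragments of 200 to 300 bp were selected; in replicate 2, amplification came first and 200 to 500 bp were kept.

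H3K27ac is laid down by the acetyltransferases p300 and CBP and marks promoters and enhancers in use. Pou5f1 encodes OCT4, a POU-domain factor, and Sox2 encodes its HMG-box partner; together they bind composite sites in many enhancers of ES cells, including enhancers of their own genes. Sall4 encodes a zinc-finger factor that also occupies such enhancers. Zscan4 turns on briefly in few ES cells at a time and in the embryo around the start of its own transcription.

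The regulatory letters closest to the starts of these genes are shown because the OCT4 and SOX2 proteins can act on the genes that encode them. They are the 250 bases before the start in RefSeq (build GRCm38.p6, forward strand), chr17:35505782-35506031 for Pou5f1 and chr3:34649745-34649994 for Sox2. They are reference letters, not reads from the MC1-ZE7 line. These coordinates belong to another build than mm9, so no acetylation value is tied to these letters. Sall4 had no entry, so 2 of 3 genes were matched. Pou5f1 had 2 starts, and only the letters before 1 of them were read. Capitals mark matches, on either strand, to ATGCAAA, the first letters of the octamer bound by POU factors (the full octamer was not searched for), a SOX site (ACAAAG), the GC box (GGGCGG), the CCAAT box (CCAAT) and a TATA box (TATAAA).
Pou5f1: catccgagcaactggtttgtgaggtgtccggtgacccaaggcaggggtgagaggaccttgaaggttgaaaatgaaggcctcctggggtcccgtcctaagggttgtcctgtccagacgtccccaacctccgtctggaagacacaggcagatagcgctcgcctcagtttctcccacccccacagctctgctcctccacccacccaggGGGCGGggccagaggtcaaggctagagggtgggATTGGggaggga
Sox2: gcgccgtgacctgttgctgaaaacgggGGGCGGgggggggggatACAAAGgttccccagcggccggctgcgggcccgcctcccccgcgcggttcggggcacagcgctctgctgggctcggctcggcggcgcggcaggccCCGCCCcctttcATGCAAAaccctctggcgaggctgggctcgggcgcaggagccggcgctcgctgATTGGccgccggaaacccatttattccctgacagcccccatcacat
The Sox2 window of letters held ATGCAAA at 1 place, from 99 to 93 bases before the start, and 1 SOX site, from 206 to 201 bases before it. It also held 2 GC boxes and 1 CCAAT box. The Pou5f1 letters held 1 GC box, from 45 to 40 bases before the start, and 1 CCAAT box, and no match to ATGCAAA or the SOX letters. Of the 32851 RefSeq promoters of this length, 4.1% held ATGCAAA, 16.5% the SOX site, 32.7% the GC box, 33.8% the CCAAT box and 12.4% the TATA letters, which neither printed sequence had. G and C made up 72.0% of the Sox2 and 62.0% of the Pou5f1 letters, against a median of 52.4%. A match is a description of letters and does not show binding.

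The regions carry no gene names and were not set against an mm9 annotation. Whether any of the 17 regions holds a promoter, an exon, an intron or an enhancer was therefore not determined. The promoters of the 3 genes may lie outside all 17. In the RefSeq gene order, Pou5f1 is followed by Tcf19 and Cchcr1, Sox2 lies inside the long non-coding RNA gene Sox2ot, and Sall4 overlaps the long non-coding RNA gene Gm14261 between Atp9a and Zfp64, so a region of a window may belong to such a neighbour. Every one of the 17 regions had reads in every library, from 12 to 390. No input library was used here, and a lower level in a sorted fraction can mean fewer cells with the mark or less mark per cell, which cannot be told apart. Region numbers ran on without a gap through each window. None of them overlapped the interval in which the distal control region of Sox2 was looked for, so that enhancer was not analysed here. It fell between R13720, which ended at 34645132, and R13721, which began at 34663013.

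Values are RPKM, reads scaled to the width of the region and the total of the library. The libraries held 9939358 to 18282716 reads, worked out from the steps in the RPKM values. The regions of the list held 12.97% of the reads of Zscan4+ replicate 1 and 16.74% to 19.14% of those of the other 3 libraries. The median listed region had 4.77 and 5.08 RPKM in Zscan4- replicates 1 and 2, and 3.8 and 5.48 RPKM in Zscan4+ replicates 1 and 2. Zscan4+ replicate 1 therefore lay low across the whole list, and results are also given after centring each library on its median. Differences are on the log2(RPKM + 0.5) scale, Zscan4+ minus Zscan4-, from limma fitted over all listed regions, with p-values adjusted over all of them (Benjamini-Hochberg) and calls at an adjusted p of at most 0.05. limma shared 1 variance between regions of like level, so standard errors were 0.35 to 0.38 for all members.

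H3K27ac was lower in Zscan4+ cells at most of the 17 regions, but the drop was past the test at 2 of them: R13717 in the Sox2 window fell to 35.5% of its Zscan4- level and R13332 in the Sall4 window to 44.9%. No region of the Pou5f1 window was called. Both called regions were weak: by mean level, R13717 lay at percentile 7.1 of the list and R13332 at 11.8. The 17 members ran from 7.1 to 80.4. These 2 of 17 lower calls (11.8%) stand beside 6.82% of all listed regions called lower. Higher calls were 0 of 17, with 8.01% of all listed regions called higher. At an unadjusted p under 0.05, limma had 1 higher member, R13718 in the Sox2 window. With both directions together, 3 of the 17 members and 6269 of the 23946 listed regions had such a p in limma. Voom on the recovered reads also called 0 members higher. The difference was below 0 at 14 of the 17 regions (82.4%), against 61.7% of all listed regions. The median difference was -0.44 for the members, against -0.17 for the whole list. Both Zscan4+ libraries lay below both Zscan4- libraries at 12 of the 17 regions (70.6%), against 35.1% of the list. Both lay above at 1, R13718, against 18.6% of the list. After centring on the medians, the median difference was -0.34 for the members and -0.07 for the list.

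**Figure D1:**
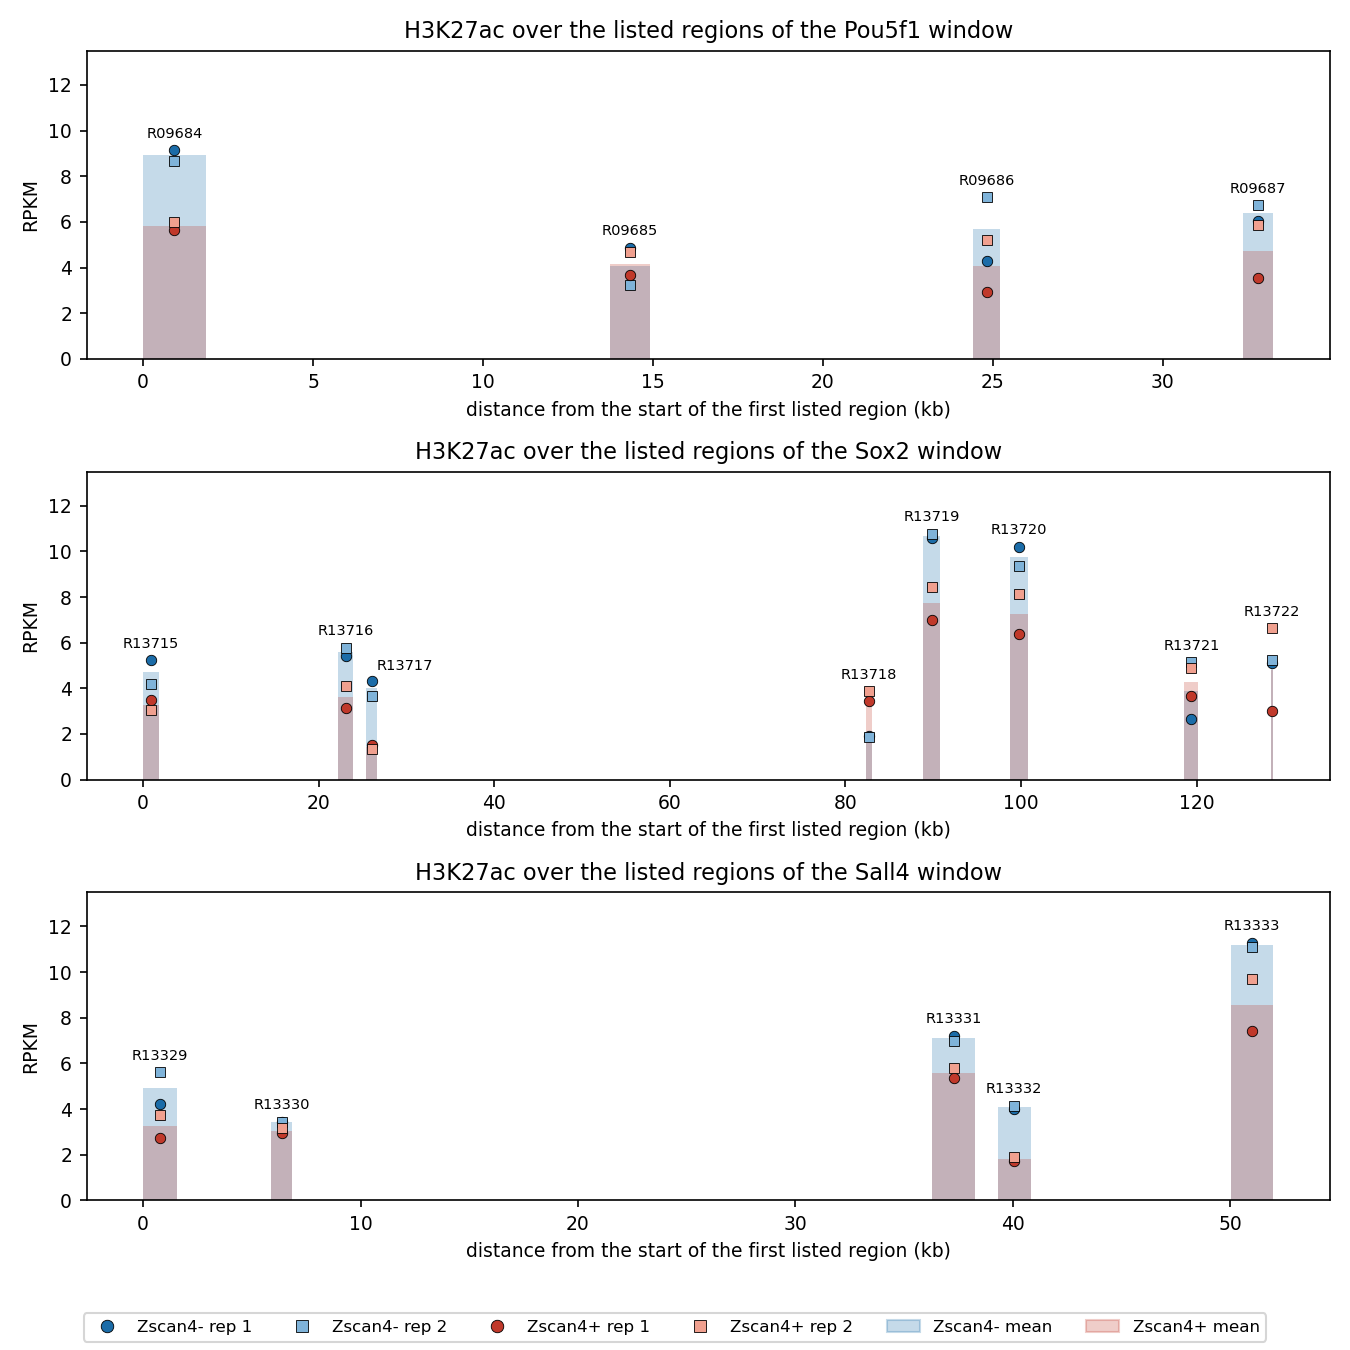
RPKM of each listed region (vertical axis) against distance in kb from the start of the first listed region of its window (horizontal axis), with points for the 4 libraries and shaded bars, as wide as the region, for the group means. The means of both groups reach 7.26 RPKM or more at R13719, R13720 and R13333, and the Zscan4+ mean is the higher by a wide margin at R13718, at 3.66 against 1.89 RPKM.

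**Figure D2:**
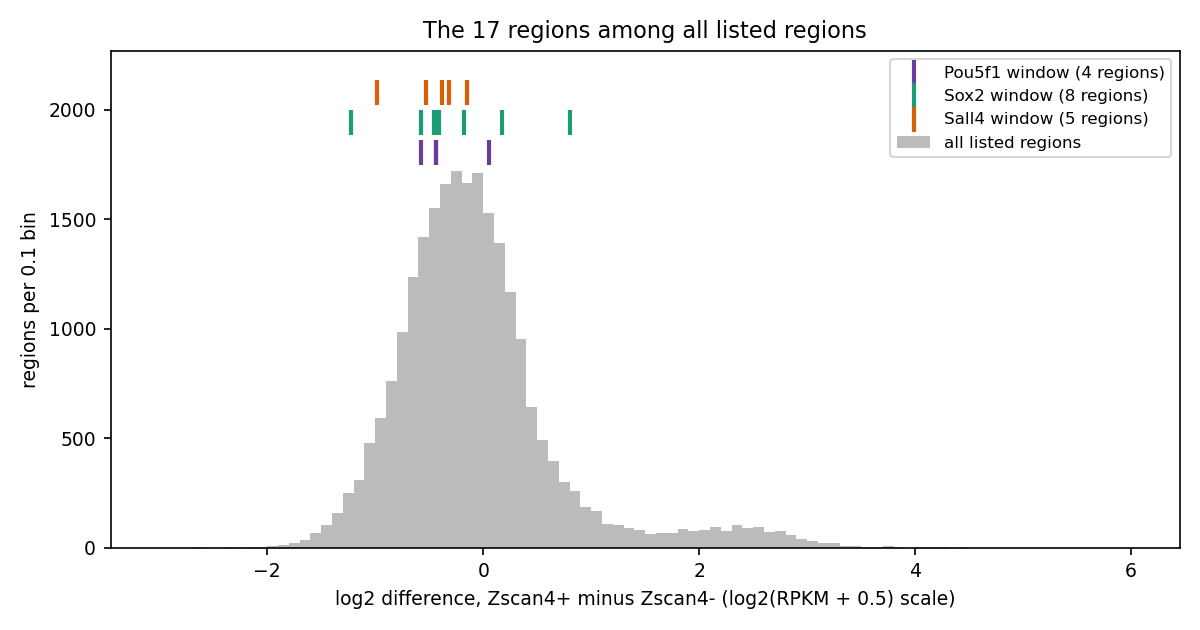
Histogram of the log2 difference of all 23946 listed regions in bins of 0.1 (grey bars, vertical axis: regions per bin), with coloured ticks for the regions of the Pou5f1, Sox2 and Sall4 windows. Most of the members' ticks lie below 0, within the main body of the list, and R13717 is the lowest.

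The 4 regions of the Pou5f1 window covered 4712 bp of its 40 kb. R09684, from 35621982 to 35623821, was the strongest, in the 73.3rd percentile of mean level over the list. It had 9.14 and 8.69 RPKM in Zscan4- replicates 1 and 2, and 5.65 and 5.98 RPKM in Zscan4+ replicates 1 and 2. The groups did not overlap, and the Zscan4+ mean was 65.3% of the Zscan4- mean. Its log2 difference of -0.58 (standard error 0.37) missed the threshold (limma adjusted p = 0.33), with a 95% interval of -1.3 to 0.14. Pooling the replicates gave 451 reads for Zscan4- and 365 reads for Zscan4+. Relative to the library totals their ratio was 0.66, with an exact 95% counting interval of 0.57 to 0.75, which leaves out the spread between libraries.

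R09685, from 35635707 to 35636887, had 4.86 and 3.24 RPKM in the Zscan4- and 3.66 and 4.68 RPKM in the Zscan4+ libraries. The groups overlapped fully at this region, and its log2 difference was 0.05 (limma adjusted p = 0.95). R09686, from 35646400 to 35647196, had 4.3 and 7.07 RPKM in Zscan4- and 2.95 and 5.21 RPKM in Zscan4+ libraries. Here replicate 2 was above replicate 1 in both groups, and within each replicate Zscan4+ was lower, by -0.48 and -0.41, while the groups overlapped. R09687, from 35654332 to 35655229, had 6.06 and 6.72 RPKM in Zscan4- and 3.54 and 5.88 RPKM in Zscan4+ libraries, a log2 difference of -0.44 (limma adjusted p = 0.48). The groups at R09687 did not overlap, but the Zscan4+ replicates lay further apart than the groups' nearest values.

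The 8 regions of the Sox2 window covered 11399 bp of its 150 kb, in a first set of 3 and, after a gap of 55.6 kb, a second set of 5. The first set began with R13715, from 34544384 to 34546169, which had 5.24 and 4.2 RPKM in Zscan4- and 3.49 and 3.06 RPKM in Zscan4+ libraries. R13716, from 34566585 to 34568332, had 5.41 and 5.77 RPKM in Zscan4- and 3.13 and 4.1 RPKM in Zscan4+ libraries. At both, each Zscan4+ library was below each Zscan4- library. Neither passed the test, with log2 differences of -0.46 (limma adjusted p = 0.44) and -0.58 (0.3).

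R13717, from 34569724 to 34571073, was the region that fell most among the 17. It had 4.33 RPKM (58 reads) and 3.67 RPKM (88 reads) in the Zscan4- libraries, and 1.5 RPKM (37 reads) and 1.35 RPKM (29 reads) in the Zscan4+ libraries. The group means were 4.0 ± 0.47 and 1.42 ± 0.11 RPKM (SD, n = 2), and the gap between the groups was larger than the spread within either. The log2 difference was -1.22 (standard error 0.36, limma adjusted p = 0.0072), at -1.27 in replicate 1 and -1.17 in replicate 2. It lay at the 2.6th percentile of differences in the list. The pooled read ratio was 0.37, with an exact counting interval of 0.27 to 0.49. R13717 was called lower in 13 of 15 alternatives, with differences of -1.53 to -1.04 and adjusted p of 0.0016 to 0.31. Removing the minimum and loosening the threshold kept the main fit, so neither could lose the call. The 2 exceptions to the 13 calls left out 1 Zscan4- library each. Without Zscan4- replicate 1 the difference was -1.12 (limma adjusted p = 0.31), and without Zscan4- replicate 2 it was -1.33 (0.26). In those fits the median standard error of the list was 0.65 and 0.64 in place of 0.36, and 0.526% and 0.246% of all regions were called lower.

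R13718, from 34626701 to 34627430, moved the other way. It had 1.93 and 1.85 RPKM in Zscan4- and 3.45 and 3.88 RPKM in Zscan4+ libraries. By RPKM it was the weakest of the 17 in Zscan4- cells, and its Zscan4+ mean was 193.7% of the Zscan4- mean. It held 14 and 24 reads in the Zscan4- libraries. By mean level over the 4 libraries it lay at percentile 8.2 of the list. The pooled read ratio was 1.94, with an exact counting interval of 1.31 to 2.91. The log2 difference of 0.8 missed the threshold with deposited RPKM (limma adjusted p = 0.12). It passed in 3 of 15 alternatives: at 0.9 with each library centred on its median (limma adjusted p = 0.017), at 0.79 with quantile normalization (0.034), and at 0.9 with the replicate block and centring together (0.0068). Over all 15, its adjusted p ran from 0.0068 to 0.9. Those 3 settings called 14.1%, 14.0% and 20.7% of the list higher. In the same settings, 15.1%, 14.1% and 24.5% of the list were called lower.

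The strongest pair of the Sox2 window lay next to R13718. R13719, from 34633179 to 34635215, had 10.58 and 10.78 RPKM in Zscan4- and 6.98 and 8.45 RPKM in Zscan4+ libraries. R13720, from 34643170 to 34645132, had 10.2 and 9.35 RPKM in Zscan4- and 6.38 and 8.13 RPKM in Zscan4+ libraries. By level they lay at percentiles of 79.0 and 77.2 of the list, and at both the groups did not overlap. Their Zscan4+ means were 72.3% and 74.3% of the Zscan4- means, with log2 differences of -0.45 and -0.41 (limma adjusted p = 0.49 and 0.53). With the replicate block and median centring together, both were called lower, at -0.35 (limma adjusted p = 0.033) and -0.32 (0.048). The same setting called R09684 in the Pou5f1 window and R13716, beside the 2 regions called on deposited values. R13719 and R13720 were also called without Zscan4+ replicate 2. Over all 15 alternatives their adjusted p ran from 0.033 to 1.0 and from 0.048 to 1.0.

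The last 2 regions of the window did not separate the groups. R13721, from 34663013 to 34664567, had 2.65 and 5.14 RPKM in Zscan4- and 3.66 and 4.89 RPKM in Zscan4+ libraries. Its log2 difference was 0.17 (limma adjusted p = 0.83), with a 95% interval of -0.52 to 0.86. R13722, from 34672887 to 34673124 and only 237 bp wide, had 5.09 and 5.23 RPKM in Zscan4- and 3.0 and 6.63 RPKM in Zscan4+ libraries. It held 12 to 25 reads per library, and its pooled ratio of 0.91 had a counting interval of 0.55 to 1.48, so a difference of that size was not detectable at this depth.

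All 5 regions of the Sall4 window had lower values in both Zscan4+ than in both Zscan4- libraries, an order found at 35.1% of the list, and 1 of the 5 was called lower, as 6.82% of the list were. They covered 7931 bp of 70 kb. R13332, from 168604898 to 168606403, fell from 4.01 and 4.15 RPKM in Zscan4- replicates 1 and 2 to 1.74 and 1.92 RPKM in Zscan4+ replicates 1 and 2. These values stood for 60 and 111 reads against 48 and 46 reads. The means were 4.08 ± 0.1 and 1.83 ± 0.13 RPKM (SD, n = 2), and the 2 groups lay far apart compared with their replicates. The log2 difference was -0.98 (standard error 0.35, limma adjusted p = 0.042), at -1.01 in replicate 1 and -0.94 in replicate 2. The pooled read ratio was 0.45, with an exact counting interval of 0.34 to 0.58. Removing the minimum and loosening the threshold again kept the main fit and could not lose the call at R13332. R13332 was called lower in 13 of 15 alternatives. The exceptions were again the fits without Zscan4- replicate 1 (-1.0, limma adjusted p = 0.53) and without Zscan4- replicate 2 (-0.95, adjusted p = 0.69).

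The strongest member of all was R13333, from 168615630 to 168617563, with 11.29 and 11.1 RPKM in Zscan4- and 7.41 and 9.72 RPKM in Zscan4+ libraries. Its Zscan4+ mean was 76.5% of the Zscan4- mean, a log2 difference of -0.38 (limma adjusted p = 0.58). R13331, from 168601863 to 168603845, had 7.21 and 6.99 RPKM in Zscan4- and 5.38 and 5.8 RPKM in Zscan4+ libraries, a difference of -0.32 (limma adjusted p = 0.64). R13329, from 168565576 to 168567153, had 4.21 and 5.61 RPKM in Zscan4- and 2.74 and 3.74 RPKM in Zscan4+ libraries, a difference of -0.53 (limma adjusted p = 0.35). In R13330, from 168571473 to 168572407, the groups were closest, at 3.45 and 3.44 RPKM against 2.93 and 3.16 RPKM, a difference of -0.15 (limma adjusted p = 0.84). The uncalled regions of this window thus kept 66.0% to 88.4% of their Zscan4- level, with 95% intervals of the log2 difference that held 0.

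**Figure D3:**
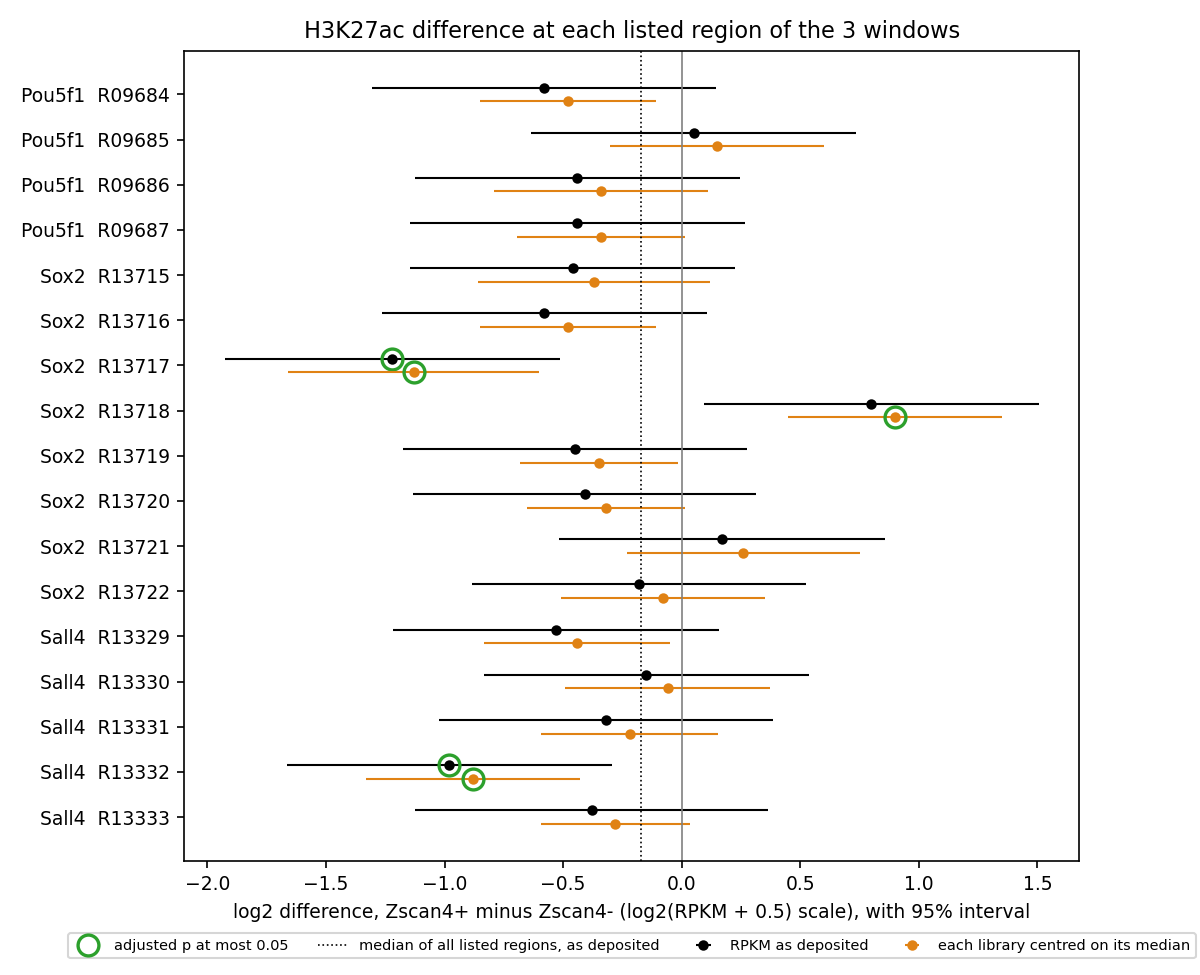
Log2 difference (Zscan4+ minus Zscan4-, horizontal axis, log2(RPKM + 0.5) scale) of each of the 17 regions (vertical axis) with its 95% interval, for RPKM as deposited (black) and after centring each library on its median (orange). Green rings mark an adjusted p of at most 0.05, which R13717 and R13332 have in both versions and R13718 after centring; the dotted line is the median of the list, -0.17.

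Summed over its regions and weighted by width, each window lost a like amount. The Pou5f1 window had 6.66 and 6.68 RPKM in Zscan4- replicates 1 and 2, and 4.29 and 5.51 RPKM in Zscan4+ replicates 1 and 2. The Sox2 window had 6.4 and 6.44 against 4.33 and 5.23 RPKM, and the Sall4 window had 6.56 and 6.76 against 4.37 and 5.3 RPKM. In every window the Zscan4- replicates were nearly equal and both Zscan4+ replicates were lower, with replicate 1 the lower of the 2. The log2 differences were -0.46, -0.43 and -0.47 for Pou5f1, Sox2 and Sall4, that is 72.9%, 74.1% and 72.3% of the Zscan4- level. The 3 windows differed from each other by less than the spread between replicates, a pooled SD of 0.14 to 0.18 on the log2 scale. An exact two-sided permutation test of 2 libraries against 2 gave p = 0.33 for each window, the smallest it can give. Leaving out single libraries moved the Pou5f1 difference most, to -0.28 without Zscan4+ replicate 1 and to -0.64 without Zscan4+ replicate 2. The same sum over the whole list was -0.13, at -0.37 in replicate 1 and 0.1 in replicate 2.

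The low overall level of Zscan4+ replicate 1 moved with these sums. Each window was therefore also expressed relative to the median region of the same library. This rescales every library, so the part of Zscan4+ replicate 1 alone was not isolated. The Pou5f1 window then had 1.4 and 1.31 times the median in Zscan4- and 1.13 and 1.0 times in Zscan4+ replicates 1 and 2. The Sox2 window had 1.34 and 1.27 against 1.14 and 0.95 times, and the Sall4 window 1.37 and 1.33 against 1.15 and 0.97 times. The groups did not overlap in any of the 3 windows, and the log2 differences were -0.35, -0.32 and -0.36, against -0.03 for the whole list. On this scale the drop was larger in replicate 2, at -0.39 to -0.46, than in replicate 1, at -0.24 to -0.31. The limma fits with single libraries left out used deposited RPKM, not this scale. Leaving out Zscan4+ replicate 2 kept the low Zscan4+ replicate 1 as the only Zscan4+ library, so the low level of that library was not removed there. Without Zscan4+ replicate 2, limma called 10 of the 17 members lower, against 31.5% of the list.

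Shares of a window's signal within one library do not change when a library is multiplied by one factor. R13717 held 8.01% and 6.75% of the Sox2 window's signal in Zscan4- and 4.1% and 3.06% in Zscan4+ libraries, so it lost more than the window as a whole. R13718 held 1.93% and 1.84% in Zscan4- and 5.09% and 4.75% in Zscan4+ libraries. R13717 and R13718 had the lowest and the highest difference of this window, so the direction of their shares followed from that. The large region R13719 held 29.54% and 29.9% in Zscan4- and 28.79% and 28.87% in Zscan4+ libraries, a small drop with no overlap between groups. R13716 also lost share, from 12.96% and 13.73% in Zscan4- to 11.08% and 12.02% in Zscan4+ libraries. R13720 overlapped, with means of 26.22% in Zscan4- and 26.06% in Zscan4+ libraries. R13721 held 5.65% and 10.88% in Zscan4- and 11.52% and 12.75% in Zscan4+ libraries, higher in both Zscan4+ libraries although the Zscan4- replicates lay far apart. In the Sall4 window, R13332 held 11.6% and 11.65% in Zscan4- and 7.55% and 6.88% in Zscan4+ libraries. Its difference was the lowest of that window, so a falling share followed here too. R13330 of that window gained share, from 6.2% and 5.99% in Zscan4- to 7.89% and 7.02% in Zscan4+ libraries. How often such shares separate the groups elsewhere in the list was not tested. In the Pou5f1 window, the share of R09685 was 18.26% and 12.15% in Zscan4- and 21.35% and 21.29% in Zscan4+ libraries. The other 3 Pou5f1 regions overlapped between groups. The last 3 Sox2 regions, R13720 to R13722, which flank the distal control interval, held 34.7% and 37.6% of the window's signal in Zscan4- and 38.3% and 42.1% in Zscan4+ libraries. The difference was 4.1 percentage points, with SDs of 2.0 and 2.7 points (n = 2) and again an exact permutation p of 0.33, and most of it came from R13721. It was 2.7 points without Zscan4- replicate 1 and 2.2 points without Zscan4+ replicate 2.

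**Figure D4:**
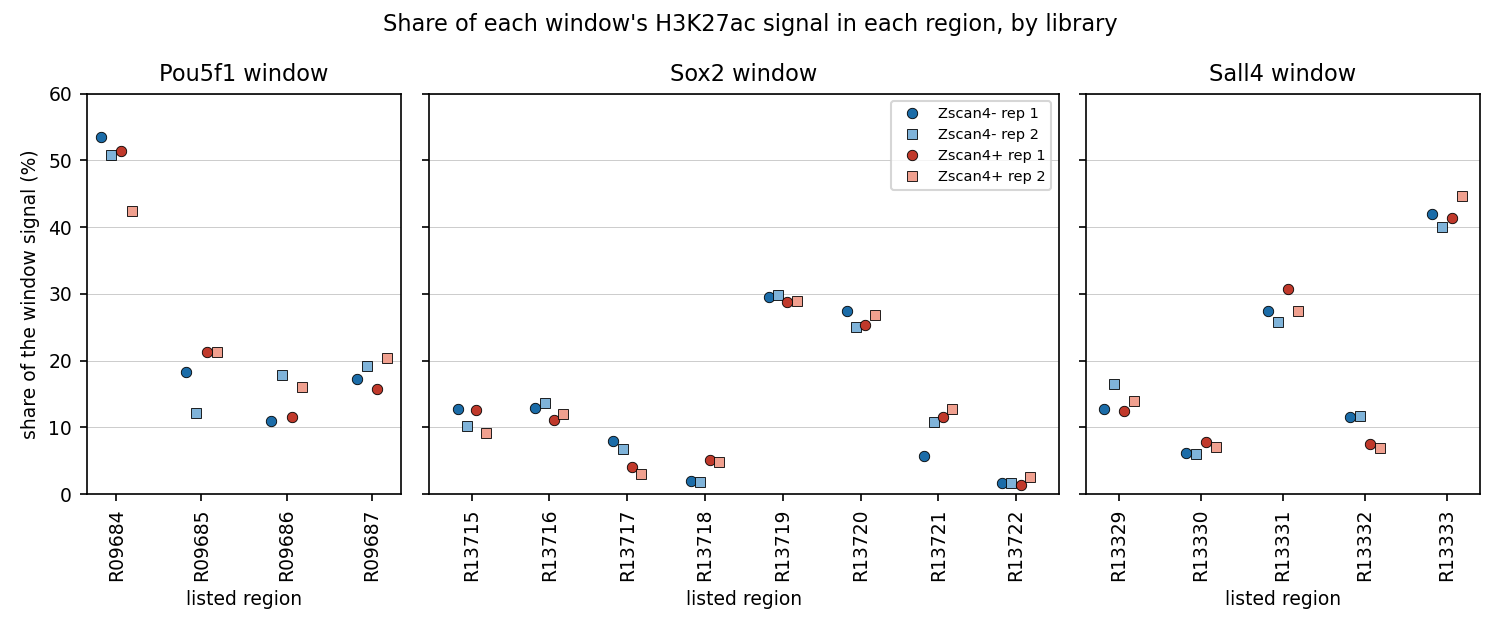
Share of a window's H3K27ac signal (RPKM times width, vertical axis in %) in each of its listed regions (horizontal axis), with 1 point per library. The Zscan4+ points lie below the Zscan4- points at R13716, R13717, R13719 and R13332, by little at R13719. They lie above them at R09685, R13718, R13721 and R13330. R13719 and R13720 stay near 29% and 26%.

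Both regions called lower had a listed neighbour close by. R13717 and R13332 had the lowest differences of all members, at -1.22 and -0.98, so any neighbour among the members had to fall less. R13716 and R13717 were 1392 bp apart, and R13331 and R13332 were 1053 bp apart, the shortest gaps in the 3 windows. The ratio of R13717 to R13716 was 0.8 and 0.64 in Zscan4- replicates 1 and 2, and 0.48 and 0.33 in Zscan4+ replicates 1 and 2. The ratio of R13332 to R13331 was 0.56 and 0.59 in Zscan4- and 0.32 and 0.33 in Zscan4+ libraries. On the log2 scale these ratios changed by -0.84 and -0.81, and in neither pair did the groups overlap. Across the 55.6 kb gap of the Sox2 window, the ratio of R13718 to R13717 went from 0.45 and 0.5 to 2.3 and 2.87. This was the largest change among the 14 neighbouring pairs. The pair joins the members with the highest and the lowest difference. The groups did not overlap in 9 of these 14 pairs (64.3%), close to the 61.4% of the 16013 neighbouring pairs of the list with gaps up to that size and reads in every library. The pairs were examined after the regions' values had been seen and no test was made of them.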

How the data were processed

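The 4 files hold RPKM over one shared list of regions, as deposited by the authors, with 2 decimals. Bowtie and HOMER and the build mm9 are named in the submitters' processing notes; the sources used here give neither versions nor the way regions were called. Recovered reads are RPKM times width divided by the value of 1 read; below 50 reads, 97.15% to 99.97% of a library's values came out whole to within 0.1 reads. Groups were compared with limma 3.58.1 (R 4.3.3, variance trend) on log2(RPKM + 0.5) after a minimum mean of 0.5 RPKM, which all 23946 regions passed; the fit was tested on simulated data. Python 3.11.15 and scipy 1.17.1 gave exact permutation tests and exact counting intervals. These intervals hold counting error alone; PCR copies were not told apart from separate molecules.

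Windows of 12 or fewer regions had all regions described; likeness used the 3 nearest regions by Euclidean distance over the 4 libraries. Members and lists were chosen with earlier results of these data known. The numbers were taken to pair libraries, as the labels give replicate 2 its own preparation; differences between replicates 1 and 2 correlated at 0.35 between groups across regions. The share of the distal control interval of Sox2, the intended measure, has no value, so the alternative boundary, all Sox2 regions from R13720 on, was used. Lists of other pluripotency genes and of cell type markers need mm9 gene positions and were not run. Alternatives were median centring, quantile normalization, a replicate block with and without centring, other pseudocounts (0.1, 1), another minimum (none, 2 RPKM), no variance trend, a threshold of 0.10, voom on recovered reads, and leaving out each library.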

Additional observations from a re-analysis of the deposited data

How the results depend on the processing

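Of 255 values of the 17 regions under 15 alternatives, 231 kept their direction and their side of the threshold. Of the others, 15 gained a call, 4 lost a call and 5 changed sign. Removing the minimum repeated the main fit, because every listed region passed the minimum. The looser threshold also kept the main fit and could only add calls. The 231 therefore include values that could not have differed. Lower calls over the 3 windows (2, beside 6.82% of the list) numbered 6 with the replicate block and median centring, which called 24.5% of the list lower (1 in the Pou5f1 window, 4 in the Sox2 window) and ran from 0 to 10 with single libraries left out (Pou5f1 0 to 3, Sox2 0 to 5, Sall4 0 to 2). Higher calls (0) numbered 1, in the Sox2 window, with median centring, with quantile normalization and with the block and centring. The replicate block alone left 2 lower and 0 higher calls. With 0 lower calls, in the limma fits without Zscan4- replicate 1 or 2, 1 member had an unadjusted p under 0.05. The lone library of a group was assumed to vary like the other group, so the spread came from the other group's pair alone. The median standard error of the list, 0.36 in the main fit, was 0.65 and 0.64 in those fits. It was 0.27 without Zscan4+ replicate 2. Why the pairs of the groups differed in spread was not tested. Signs changed only in leave-one-out fits: R09685 ran from -0.21 to 0.31, R13721 from -0.25 to 0.59 and R13722 from -0.69 to 0.33. The Sox2 window difference of -0.43 was -0.29 as an unweighted mean of log2 values, which gives small regions equal weight. With single libraries left out, the window differences ran from -0.64 to -0.28 (Pou5f1), -0.57 to -0.3 (Sox2) and -0.61 to -0.33 (Sall4), and the difference in the share of the last 3 Sox2 regions from 2.2 to 6.0 points. Depth limits R13722 (12 to 25 reads per library) and R13718 in Zscan4- cells.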

Other observations

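The listed regions nearest to each window, outside it, did not share one direction. They lay 25.7 to 246.5 kb from the Pou5f1 window and 103.4 to 302.7 kb from the Sox2 window. For the Sall4 window the distances were 26.1 to 53.7 kb. Of the 2 nearest on each side, log2 differences ran from -0.42 to 0.57 around Pou5f1, with 0 of 4 called, from -1.53 to 2.45 around Sox2, with 3 of 4 called, and from -0.75 to 1.09 around Sall4, with 1 of 4 called. R13334, 26.1 kb beyond the Sall4 window on chromosome 2 from 168646123 to 168647154, had 1.27 and 2.24 RPKM in Zscan4- and 3.61 and 4.87 RPKM in Zscan4+ libraries, a log2 difference of 1.09 (limma adjusted p = 0.019). R13723 lay 103.4 kb beyond the Sox2 window on chromosome 3, from 34783384 to 34784491. It had 5.27 and 5.19 RPKM in Zscan4- and 1.38 and 1.59 RPKM in Zscan4+ libraries. Its log2 difference was -1.53 (limma adjusted p = 0.00026). On the other side of the Sox2 window, R13713 was called higher, at 2.45 (limma adjusted p = 8.4e-10). R13714 on that side was called lower, at -1.03 (limma adjusted p = 0.028). Over the whole list, 6.82% of regions were called lower and 8.01% higher.

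Regions elsewhere had profiles like those of the strongest members. Over the 4 libraries, the nearest to R13719 of the Sox2 window was R20578 on chromosome 8, from 9340284 to 9342271, with 10.73, 10.91, 6.85 and 8.16 RPKM in Zscan4- replicates 1 and 2 and Zscan4+ replicates 1 and 2 (Euclidean distance 0.06 in log2 units). R06522 and R12293 followed at 0.117 and 0.127. The nearest to R13333 of the Sall4 window was R07905 on chromosome 15, from 77136457 to 77138070, at 0.064, followed by R13833 and R23460 at 0.092 and 0.097. The nearest to R09684 of the Pou5f1 window was R15096 on chromosome 4, from 56944050 to 56945952, at 0.109, followed by R19752 and R03819 at 0.143 and 0.153.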
